A study of Homo sapiens with 4 samples.

Results

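Cells make purine and pyrimidine nucleotides from small precursors (de novo synthesis) or recycle bases and nucleosides (salvage), and the enzymes of both routes, with those of folate metabolism that carry the one-carbon units, are the subject here. The set held 42 genes of the 63677 rows in the deposited table, chosen by gene symbol from a list of pathway enzymes: 12 genes of deoxynucleotide (dNTP) and thymidylate supply, 11 of pyrimidine synthesis and salvage, 14 of purine synthesis and salvage with the synthetases of their shared precursor PRPP, and 5 of folate one-carbon metabolism. Where a symbol had several rows, as GART did, the row with the highest mean was kept. All 42 were found, and 41 passed the filter on low counts. The row under the symbol NME2 was at 0 in every library and was not tested.

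The cells were MDA-MB-231, an established human line derived from a triple-negative breast cancer. They received either a control siRNA (siCt) or an siRNA pool directed at AXL (siAXL), a receptor tyrosine kinase, and RNA was sequenced from 2 libraries of each group to obtain the expression profile that follows AXL depletion. All 4 libraries came from the 1 cell line, with no other allele or agent in the labels, and the time from transfection to harvest is not given in the sources used here. Nothing in the labels says that the 2 libraries of a group came from separate cultures, so the p-values measure the spread between these libraries, which may be technical.

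The recovered reads summed to 44281982 and 39574387 in siCt 1 and siCt 2 and to 44585773 and 44559547 in siAXL 1 and siAXL 2. AXL itself had 29189 and 30617 normalized counts (reads divided by the size factor of the library) in siCt and 8658 and 7141 in siAXL, a log2 fold change of -1.93 (SE 0.092, limma adjusted p = 0.000585). Markers of this mesenchymal line (VIM, CD44, MSN, LGALS1 and ANXA1) were high in every library, and those of luminal (ESR1, PGR), lymphoid (CD3E) and endothelial cells (PECAM1, CDH5, VWF) were at or near 0. Of the remaining markers, EPCAM went from 565 and 625 normalized counts in siCt to 711 and 771 in siAXL, CD14 from 69.0 and 73.7 to 100.04 and 113, and CDH1 from 90.1 and 94.3 to 36.9 and 22.6, while GATA3 lay between 248 and 303 and PTPRC between 7.77 and 16.7. The part of these shifts in the results was not tested. In bulk RNA, fewer cells in a state and less RNA per cell cannot be told apart. Tested members had between 241 reads (DHODH) and 15960 reads (PAICS) in a library. Pseudogenes named after 13 members held at most 0.53% as many reads as the parent gene, the highest being those of IMPDH1.

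Purine synthesis builds the ring stepwise on PRPP to give inosine monophosphate (IMP), from which AMP and GMP branch. Pyrimidine synthesis builds the ring before PRPP is joined to it and gives UMP, then CTP. Ribonucleotide reductase turns ribonucleotides into the deoxy forms for DNA, and folate carriers supply carbon for the purine ring and for thymidylate, so these enzymes are in high demand in dividing cells and several are targets of antimetabolite drugs.

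Transcripts of 5 of the 6 enzymes of IMP synthesis (PPAT, GART, PAICS, ADSL and ATIC), of the CTP synthetase CTPS1, the nucleoside kinases DCK and UCK2, the reductase subunit RRM2 and the folate enzymes MTHFD1 and MTHFD2 fell in siAXL, as did ADSS, IMPDH2 and NME1. The falls were 13.8% to 32.0% in mean normalized count. The purine salvage enzyme HPRT1, the isoenzyme IMPDH1 and the deaminase DCTD rose. A gene was called when the limma p-value, adjusted by the Benjamini-Hochberg method over 16064 genes, was under 0.05. Of the 41 members tested, 14 fell and 3 rose, and 24 did not pass. Of all genes tested, 7.91% were called lower and 10.8% higher. The median log2 fold change of the members was -0.16, against -0.0022 over all genes tested, and 30 of the 41 values were negative. In 28 of the 42 members the siAXL values were both under the lower siCt value, and in 7 both exceeded the higher one, while these arrangements held for 30.5% and 30.6% of all genes tested. Leaving out siAXL 1 or siAXL 2 reduced the number of members called, so the counts depend on each of those libraries. Leaving out each library in turn gave a member median of -0.20 to -0.14. Whether calls were lost more often among members than among all genes was not tested. The calls of PPAT, DCK and CTPS1 were retained under all 14 alternative settings, and every other called member lost its call in at least 1.

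**Figure D1:**
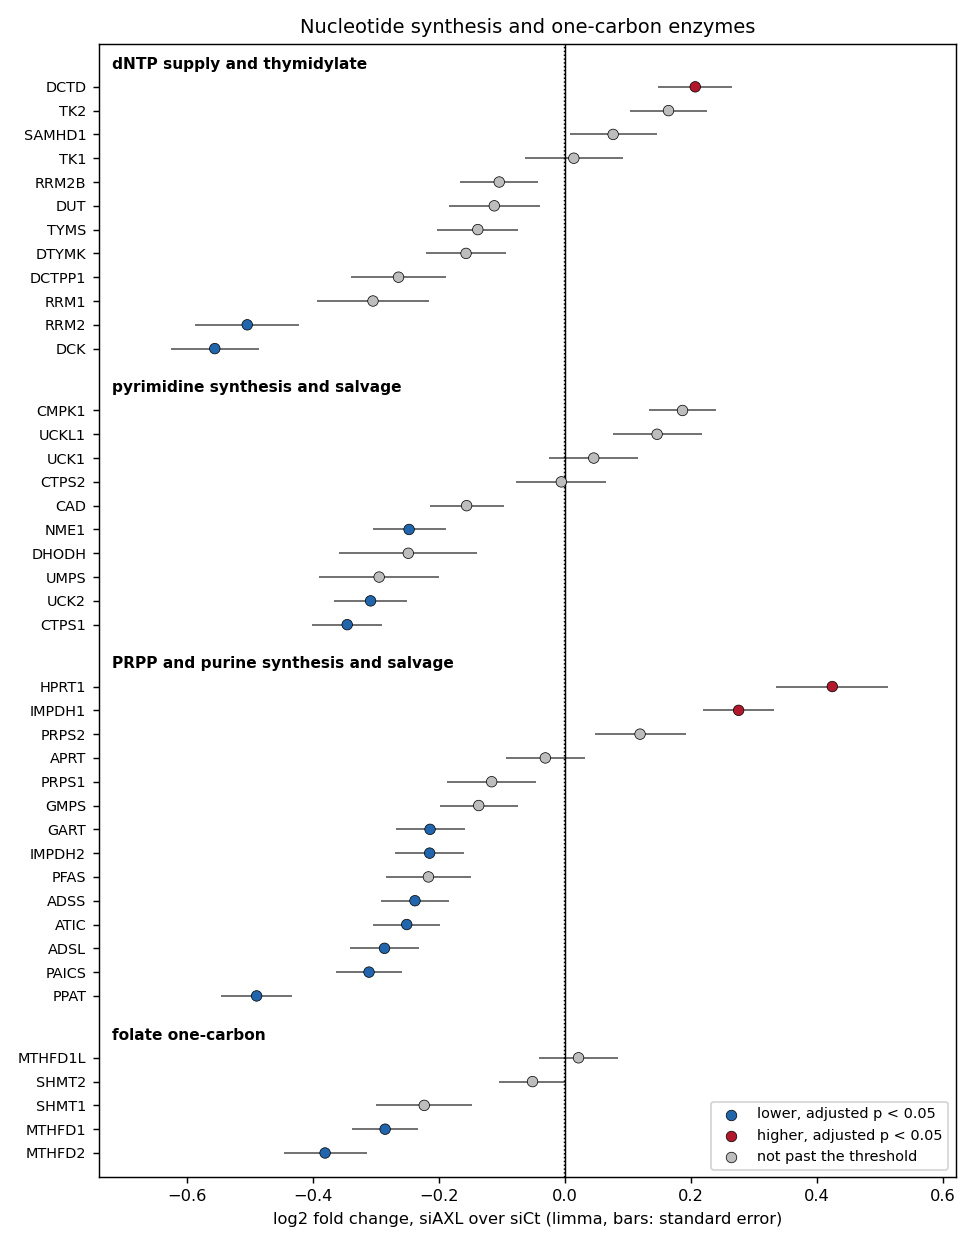
Log2 fold change of normalized counts, siAXL over siCt, for the 41 tested members by group, with bars of 1 standard error from limma; the dotted line is the median of all genes tested (-0.0022). The 14 members called lower (blue) run from -0.56 (DCK) to -0.21 (GART), and the 3 called higher (red) are HPRT1, IMPDH1 and DCTD.

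Promoter sequence is shown for 6 members called lower, which were picked by hand and not by a rule. RefSeq windows from 250 bases before to 50 bases after the start (GRCh38.p14) were matched for 38 of the 42 members and searched on both strands for an E-box (CACGTG), an NF-Y CCAAT box (CCAAT), E2F words (TTTGGCGC, TTTCCCGC, TTTCGCGC or TTTGCCGC) and an ATF4 element (TTGCATCA). None of the 4 searched motifs overlaps another in the stretches below. In capitals are the E-box in DCK, ATIC and MTHFD1 and the CCAAT boxes, in either orientation, in RRM2 and GART. The stretch of PPAT holds none and is shown because PPAT and PAICS, which encode enzymes of the same route, share it. They start on opposite strands with these 125 bases between the starts.
PPAT, chr4:56435616-56435740, minus strand: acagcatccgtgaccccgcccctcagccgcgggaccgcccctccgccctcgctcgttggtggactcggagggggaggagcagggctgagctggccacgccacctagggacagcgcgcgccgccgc
DCK, chr4:70993504-70993563, plus strand: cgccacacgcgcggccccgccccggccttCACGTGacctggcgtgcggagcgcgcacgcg
ATIC, chr2:215311984-215312043, plus strand: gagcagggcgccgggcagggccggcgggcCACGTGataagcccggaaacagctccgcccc
MTHFD1, chr14:64388284-64388343, plus strand: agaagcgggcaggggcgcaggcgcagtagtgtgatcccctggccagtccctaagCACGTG
RRM2, chr2:10122599-10122698, plus strand: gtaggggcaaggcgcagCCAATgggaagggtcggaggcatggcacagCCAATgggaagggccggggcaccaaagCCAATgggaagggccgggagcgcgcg
GART, chr21:33542933-33543032, minus strand: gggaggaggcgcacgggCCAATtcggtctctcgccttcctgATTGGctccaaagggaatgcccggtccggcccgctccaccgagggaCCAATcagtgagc

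The E-box was in the windows of 9 of 38 members, against 7.43% of all 27305 promoters and 9.91% of the 10282 promoters of tested genes. It was in 5 of the 12 windows of members called lower (DCK, PPAT, NME1, ATIC and MTHFD1), in 0 of the 3 called higher and in 4 of the 23 others. The PPAT site is 182 bases before the start and thus outside the printed stretch. The CCAAT box was in 14 of 38 windows, against 36.5% of the promoters of tested genes, and RRM2 and GART had 3 copies each. E2F words were in 3 windows (DCK, TYMS and PRPS2; 5.26% of tested genes) and the ATF4 element in 1 (MTHFD1L; 0.457%). The RefSeq window of PAICS lies at chr4:56410257-56410556. The start used for the shared stretch is 56435741, the first GENCODE start of PAICS beyond that of PPAT. The PAICS window thus does not cover the shared stretch, although it is counted among the 12 of members called lower. CTPS1 and ADSS, also called lower, had none of the 4 motifs in their windows. The uncalled DTYMK, SAMHD1 and SHMT1 had 2 CCAAT boxes each. A match describes letters in a window and not a bound site.

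De novo IMP synthesis requires 6 genes, and in all 6 the groups did not overlap, siAXL being lower. Of all genes tested, 30.5% showed this order and 7.91% were called lower. PPAT, GART, PAICS, ADSL and ATIC fell and PFAS did not pass the test. PPAT encodes the amidotransferase of the committed step, in which PRPP receives its amino group. PPAT had 2782 and 2828 normalized counts in siCt and 1980.3 and 2014 in siAXL, a log2 fold change of -0.49 (SE 0.057, limma adjusted p = 0.0033). The gap between the groups was many times the gap within either, and PPAT had the smallest adjusted p of the 41 tested members. PAICS, whose bifunctional enzyme carries out a carboxylation and the next ligation, had 15304 and 15422 normalized counts in siCt and 12191 and 12575 in siAXL. Its log2 fold change of -0.31 (SE 0.053, limma adjusted p = 0.0103) was smaller than that of PPAT, with which it shares the promoter stretch printed above. The PAICS call was not retained under every alternative setting, and leaving out each library gave -0.33 to -0.29.

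GART encodes a trifunctional enzyme of early steps that uses a folate carbon. It had 5189 and 5223 normalized counts in siCt and 4385 and 4591 in siAXL, a log2 fold change of -0.21 (SE 0.055, limma adjusted p = 0.0365). This was the smallest of the called falls, and leaving out any of the 4 libraries ended the call. GART overlaps SON on the opposite strand over 275 exonic bases, and SON, a splicing factor, had a log2 fold change of 0.023 (adjusted p = 0.871). ADSL, which acts both here and in the AMP branch, had 3477 and 3518 normalized counts in siCt and 2864 and 2870.2 in siAXL, with a log2 fold change of -0.29 (SE 0.054, limma adjusted p = 0.0144). ATIC, which adds the last folate carbon and closes the ring, had 3999 and 4025 in siCt and 3336 and 3405 in siAXL, with a log2 fold change of -0.25 (SE 0.054, limma adjusted p = 0.0216). For both genes the siAXL values lay close together and apart from siCt, but both calls were lost when siAXL 1 or siAXL 2 was left out. PFAS, the synthase between GART's steps, had 2052 and 1957 normalized counts in siCt and 1791 and 1659.6 in siAXL, a log2 fold change of -0.22 (SE 0.068, limma adjusted p = 0.0666).

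**Figure D2:**
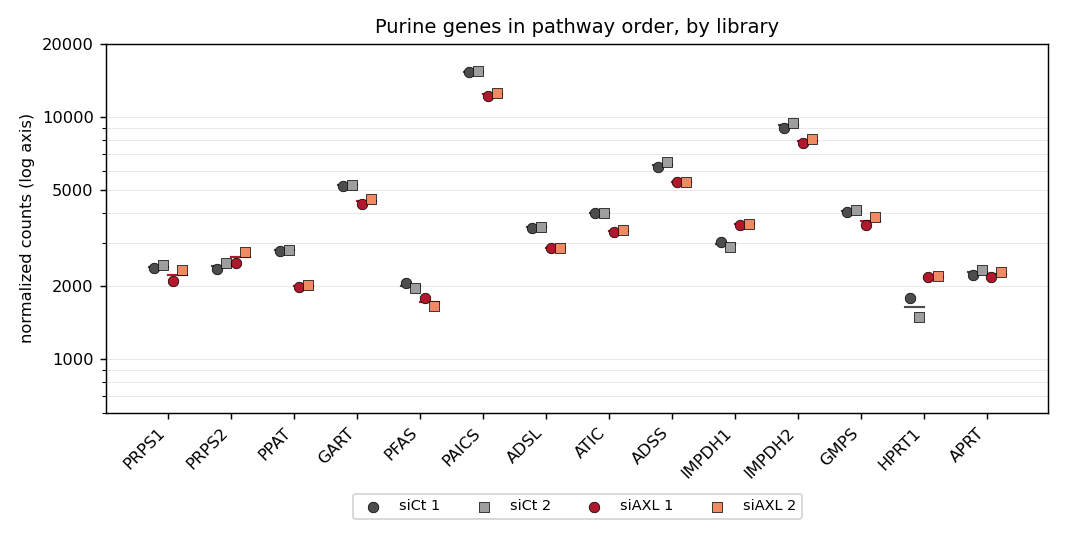
Normalized counts (log axis) of the 14 purine genes in pathway order, with 1 point per library and a short line at each group mean (n = 2 per group). From PPAT to ATIC both siAXL points lie below both siCt points, PAICS being the highest at 12191 to 15422. The opposite order is shown by IMPDH1, HPRT1 and, with almost no gap, PRPS2.

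Beyond IMP, ADSS and IMPDH2 fell and IMPDH1 rose, while GMPS did not pass. ADSS, which commits IMP to AMP, had 6207 and 6482 normalized counts in siCt and 5393 and 5361 in siAXL, a log2 fold change of -0.24 (SE 0.054, limma adjusted p = 0.0256). The ADSS call was lost in several alternative settings, and leaving out each library gave -0.27 to -0.21. The dehydrogenases IMPDH1 and IMPDH2 catalyse the same rate-limiting step toward GMP. IMPDH2 had 9036 and 9427 normalized counts in siCt and 7819 and 8086 in siAXL, a log2 fold change of -0.21 (SE 0.055, limma adjusted p = 0.0364). IMPDH1 had 3030.1 and 2908 in siCt and 3564 and 3623 in siAXL, a log2 fold change of 0.28 (SE 0.056, limma adjusted p = 0.0186). The isoenzymes thus moved in opposite directions without overlap of the groups in either. Both calls were lost when siAXL 1 or siAXL 2 was left out, and that of IMPDH2 also without siCt 2. Leaving out each library gave 0.25 to 0.31 for IMPDH1 and -0.25 to -0.18 for IMPDH2. Testing every gene with at least 1 count also ended both calls (limma adjusted p = 0.0549 and 0.0897). Per kilobase of exon, IMPDH2 had the highest level of all members in siCt (3329 normalized counts per kb, against 811 for IMPDH1). GMPS, which makes GMP from the IMPDH product, had a log2 fold change of -0.14 (SE 0.062, limma adjusted p = 0.169).

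HPRT1, the salvage enzyme of hypoxanthine and guanine and a common reference gene in PCR assays, rose most among the members. It had 1781 and 1494 normalized counts in siCt and 2178 and 2200.1 in siAXL, a log2 fold change of 0.42 (SE 0.089, limma adjusted p = 0.0204). The siCt libraries were farther apart than the siAXL libraries, and the fold change ranged from 0.30 to 0.55 when each library was left out in turn, the call being lost without siAXL 2. APRT, which salvages adenine, gave -0.03 (SE 0.062, limma adjusted p = 0.772), with overlapping groups. The PRPP synthetases PRPS1 and PRPS2, which supply the sugar phosphate for all these routes, had log2 fold changes of -0.12 (limma adjusted p = 0.293) and 0.12 (limma adjusted p = 0.295).

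In pyrimidine synthesis and salvage, CTPS1, UCK2 and NME1 fell, and none of the 10 members tested was called higher. The called falls were 30% of the 10, against 7.91% of all genes tested. The median log2 fold change was -0.20, with 7 values negative and 3 positive. CTPS1 encodes the CTP synthetase needed by proliferating lymphocytes. It had 5184 and 4933 normalized counts in siCt and 3951 and 4007 in siAXL, a log2 fold change of -0.35 (SE 0.056, limma adjusted p = 0.00879). Both siAXL libraries lay well below siCt, and the difference exceeded the spread in each group. CTPS2, the related synthetase on the X chromosome, had 1326 and 1412 in siCt and 1317 and 1410.0 in siAXL, a log2 fold change of -0.0059 (SE 0.072, limma adjusted p = 0.966).

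UCK2, the uridine-cytidine kinase that activates several nucleoside drugs, had 3543 and 3745 normalized counts in siCt and 2973 and 2909 in siAXL, a log2 fold change of -0.31 (SE 0.058, limma adjusted p = 0.0145). Its call was lost in several alternative settings, and leaving out each library gave -0.35 to -0.27. UCK2 overlaps TMCO1, an ER calcium channel gene, on the opposite strand over 225 exonic bases, and TMCO1 rose by 1.61 on the log2 scale (limma adjusted p = 0.000755). The strand setting of the count is not given in the sources used here, so reads in those bases cannot be assigned to either gene, and their part in the value of UCK2 was not tested. UCK1 and UCKL1, the other kinases of this step, had log2 fold changes of 0.05 (limma adjusted p = 0.7) and 0.15 (limma adjusted p = 0.196).

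The 3 genes of UMP synthesis all had negative values that did not pass the test. CAD, which encodes the protein of the initial 3 reactions, had a log2 fold change of -0.16 (SE 0.059, limma adjusted p = 0.109). DHODH, the mitochondrial dehydrogenase, had 269 and 297 normalized counts in siCt and 239 and 237 in siAXL, a log2 fold change of -0.25 (SE 0.11, limma adjusted p = 0.16). It had the lowest level per kilobase of any detected member (40.9 normalized counts per kb in siCt) and the largest standard error. UMPS, which completes UMP, had 1071 and 1229.8 in siCt and 885 and 989 in siAXL, a log2 fold change of -0.30 (SE 0.095, limma adjusted p = 0.0727). In all 3 genes the groups did not overlap, siAXL being lower, an order found in 30.5% of all genes tested.

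Among the kinases that follow, CMPK1, which phosphorylates UMP and CMP, had 9528 and 9786 normalized counts in siCt and 10792 and 11190.0 in siAXL. Its log2 fold change of 0.19 (SE 0.054, limma adjusted p = 0.0527) lay just outside the threshold and passed it in the edgeR quasi-likelihood test (adjusted p = 0.0313; 1.10e-05 to 0.252 over the alternatives). NME1, a nucleoside diphosphate kinase, had 2474 and 2471 in siCt and 2047 and 2119 in siAXL, a log2 fold change of -0.25 (SE 0.058, limma adjusted p = 0.0281). The NME1 call was lost in several alternative settings, and leaving out each library gave -0.27 to -0.22. The identifier that the table names NME2 belongs in GENCODE 29 to the read-through gene NME1-NME2, and it held 0 reads. The identifier that GENCODE 29 gives to NME2 is named NME1-NME2 in the table, and had 2262 and 2549.5 normalized counts in siCt and 2272 and 2599 in siAXL. Its log2 fold change was 0.017 (SE 0.089, limma adjusted p = 0.914). NME1 and NME2 are closely similar in sequence, and the division of reads between them is uncertain.

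Among the 12 genes of dNTP supply, RRM2 and DCK fell and DCTD rose. Of the 12, 16.7% were called lower and 8.33% higher, against 7.91% and 10.8% of all genes tested. Ribonucleotide reductase joins the large subunit RRM1 to a small subunit, RRM2 in S phase or RRM2B, a p53 target, outside it. RRM2 had 7774 and 8285 normalized counts in siCt and 5230.1 and 6118 in siAXL, a log2 fold change of -0.50 (SE 0.082, limma adjusted p = 0.0092). The siAXL libraries differed from each other by more than the siCt libraries did, with siAXL 1 the lower. RRM1 showed the same order of libraries, with 8660 and 9436 in siCt and 6720 and 7968 in siAXL. Its log2 fold change of -0.30 (SE 0.089, limma adjusted p = 0.0548) fell short of the threshold and passed it in the DESeq2 test (adjusted p = 0.0162; 1.81e-09 to 0.245 over the alternatives). The RRM1 value depended on the siAXL libraries, being -0.18 without siAXL 1 and -0.43 without siAXL 2. RRM2B had a log2 fold change of -0.10 (SE 0.062, limma adjusted p = 0.282).

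DCK, the salvage kinase of deoxycytidine that also activates cytarabine and gemcitabine, had the largest fall of the members. It had 2499 and 2740.2 normalized counts in siCt and 1731 and 1829.6 in siAXL, 32.0% lower in mean, with a log2 fold change of -0.56 (SE 0.07, limma adjusted p = 0.00409). The higher siAXL library remained far below the lower siCt library. DCK shares 199 exonic bases with MOB1B on the same strand, and MOB1B had a log2 fold change of 0.16 (limma adjusted p = 0.132). The thymidine kinases did not pass. TK1, the cytosolic S-phase enzyme, had 2998 and 3026 in siCt and 2827 and 3272 in siAXL (log2 fold change 0.014, limma adjusted p = 0.92), with siAXL 1 and siAXL 2 on opposite sides of siCt. TK2, the mitochondrial enzyme, gave 0.16 (limma adjusted p = 0.105).

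DCTD, which deaminates dCMP to feed thymidylate synthesis, had 4585 and 4305 normalized counts in siCt and 5049 and 5207 in siAXL, a log2 fold change of 0.21 (SE 0.058, limma adjusted p = 0.0498). Its call sat at the threshold and was lost in 8 of the 14 alternative settings. TYMS, the thymidylate synthase and target of fluorouracil, had 5409.1 and 5408.9 in siCt and 4673 and 5168 in siAXL (log2 fold change -0.14, SE 0.064, limma adjusted p = 0.181). DTYMK, the next kinase, and DUT, which removes dUTP, had log2 fold changes of -0.16 (limma adjusted p = 0.131) and -0.11 (limma adjusted p = 0.325). In TYMS, DTYMK and DUT both siAXL libraries were below both siCt libraries without passing the test. This order held for 30.5% of all genes tested. Of the enzymes that remove dNTPs, DCTPP1 had a log2 fold change of -0.26 (limma adjusted p = 0.0522) and SAMHD1 one of 0.076 (limma adjusted p = 0.49).

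**Figure D3:**
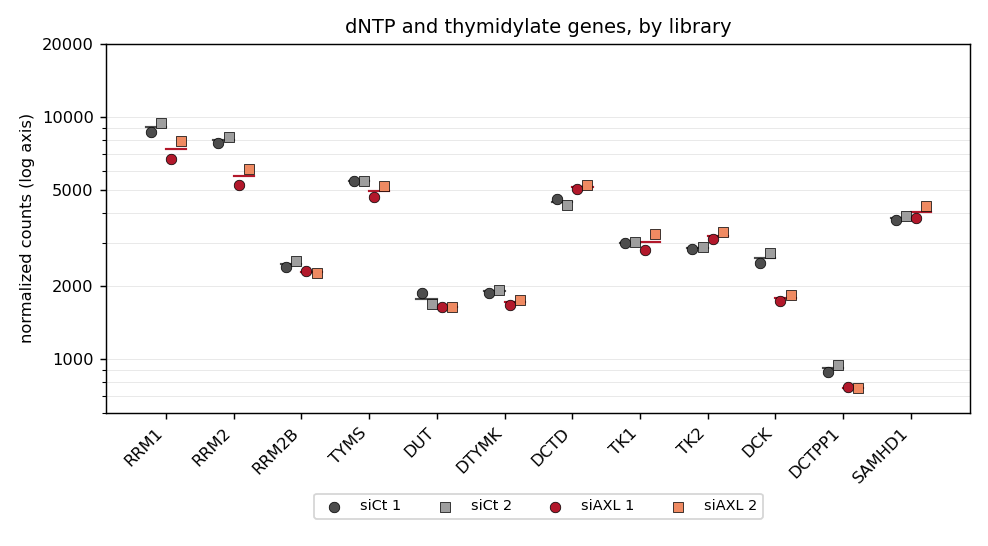
Normalized counts (log axis) of the 12 genes of dNTP and thymidylate supply, with 1 point per library and a short line at each group mean (n = 2 per group). The siAXL points of RRM2 and DCK lie below those of siCt with a wide gap, and those of TK1 lie on either side of siCt.

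Of the 5 folate enzymes, MTHFD1 and MTHFD2 fell and SHMT1, SHMT2 and MTHFD1L did not pass. The called falls were 40% of the 5, against 7.91% of all genes tested. MTHFD2 encodes the mitochondrial dehydrogenase and cyclohydrolase that is abundant in embryonic and tumour cells. It had 1720.3 and 1744 normalized counts in siCt and 1288 and 1374 in siAXL, a log2 fold change of -0.38 (SE 0.066, limma adjusted p = 0.011). MTHFD1, the trifunctional cytosolic enzyme that delivers formyl folate to GART and ATIC, had 7017 and 7128 in siCt and 5709 and 5897 in siAXL, a log2 fold change of -0.29 (SE 0.053, limma adjusted p = 0.0137). In both genes the gap between groups exceeded that within groups, and both calls were lost when siAXL 1 was left out.

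Antisense neighbours touch both genes. MTHFD1 overlaps ZBTB25 on the opposite strand, which had a log2 fold change of -0.21 (limma adjusted p = 0.153), and AL122035.2, which had 0.88 (limma adjusted p = 0.0679) from 37.8 reads per library against 6444 for MTHFD1. MTHFD2 overlaps SLC4A5 over 1324 bases, and SLC4A5 had 12.3 reads per library against 1532 for MTHFD2. The other annotated overlaps of called members, with genes such as AC137630.3 (IMPDH2) and AC068620.2 (PPAT), involved at most 23.5 reads per library, the highest being AL122035.1 beside MTHFD1. Overlaps were sought only with genes whose identifiers are in GENCODE 29, which held for 82.5% of the 63677 rows. The serine hydroxymethyltransferases, which take the carbon unit from serine, gave log2 fold changes of -0.22 for the cytosolic SHMT1 (SE 0.077, limma adjusted p = 0.0853) and -0.052 for the mitochondrial SHMT2 (SE 0.053, limma adjusted p = 0.548). MTHFD1L, which releases formate from mitochondria, had 1669 and 1604 normalized counts in siCt and 1636 and 1686 in siAXL (log2 fold change 0.021, limma adjusted p = 0.846).

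Ratios between related enzymes within a library do not depend on the scaling of libraries, apart from the pseudocount. The log2 ratio of IMPDH1 to IMPDH2 was -1.58 and -1.70 in siCt and -1.13 and -1.16 in siAXL, a difference of 0.49. Per kilobase, IMPDH1 made up 20.3% and 18.9% of the summed IMPDH1 and IMPDH2 level in siCt and 25.7% and 25.3% in siAXL. RRM2 against RRM2B gave 1.70 in both siCt libraries and 1.17 and 1.43 in siAXL, a difference of -0.40. The siAXL ratios did not overlap those of siCt in these 2 pairs, nor in the 7 others plotted. For single genes, both siAXL values were below both siCt values in 30.5% of all genes tested and above in 30.6%. The share among other gene pairs was not computed.

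The ratio of CTPS1 to CTPS2 differed by -0.34, that of MTHFD1 to MTHFD1L by -0.31 and that of PRPS1 to PRPS2 by -0.24. The ratio of UCK2 to UCKL1 differed by -0.45, and that of UCK1 to UCK2, which shares UCK2, differed by 0.35. The smallest differences were those of SHMT1 to SHMT2 (-0.17) and TK1 to TK2 (-0.15). Without siAXL 1 these came to -0.11 and -0.096, and without siAXL 2 to -0.24 and -0.20. For each pair the two-sided exact permutation test over 4 libraries gave p = 0.333, the smallest that 2 libraries against 2 can give, so that no ratio could pass the threshold.

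**Figure D4:**
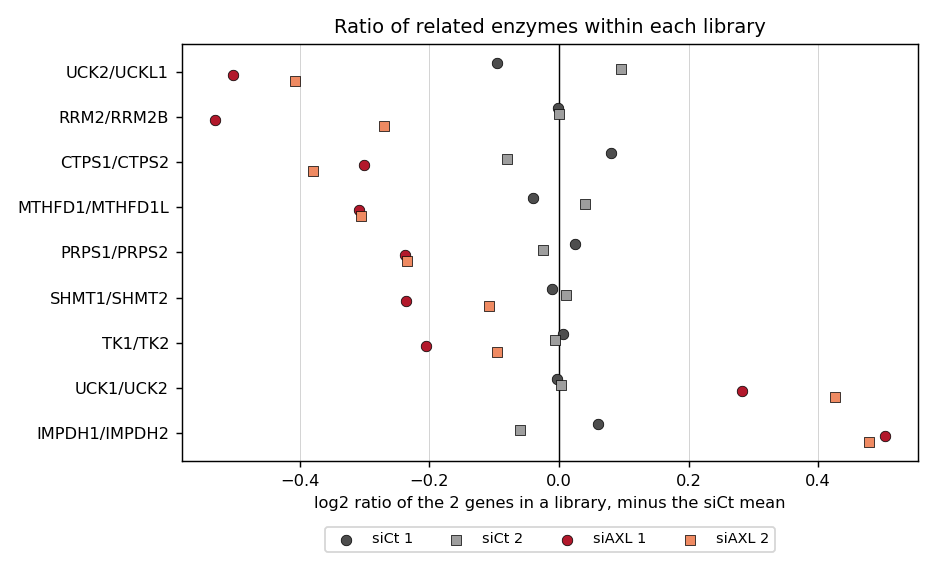
Log2 ratio of the normalized counts of 2 related enzymes in each library, minus the mean of that ratio in siCt (x axis), for 9 pairs. In siAXL the pairs IMPDH1/IMPDH2 and UCK1/UCK2 lie above the siCt libraries and the 7 others below.

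Further genes of nucleotide and folate metabolism were taken from a list of 59, drawn up, like the members, with earlier results of these data known. Of the 57 tested, 6 fell and 6 rose, 10.5% each way, near the 7.91% and 10.8% of all genes tested, and their median log2 fold change was -0.029. Scaling by total reads gave 10 lower and 6 higher. NT5E, the surface enzyme CD73 that turns AMP into adenosine, had 15634 and 14095 normalized counts in siCt and 35043 and 36343 in siAXL, a log2 fold change of 1.27 (SE 0.068, limma adjusted p = 0.000692). Both siAXL libraries held more than any siCt library by a wide margin. The nucleotide kinase of mitochondria AK4 (0.40, limma adjusted p = 0.00827), the AMP deaminase AMPD3 (0.38, limma adjusted p = 0.0267) and the formyl folate dehydrogenase ALDH1L1 (1.22, limma adjusted p = 0.0249) also rose on the log2 scale, the last from 23.0 and 18.4 to 59.2 and 41.3 normalized counts.

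Among those that fell, the uridine phosphorylase UPP1 had 2289 and 2414 normalized counts in siCt and 1691 and 1604 in siAXL, a log2 fold change of -0.51 (SE 0.065, limma adjusted p = 0.00405). XDH, which oxidises hypoxanthine to urate, gave -0.77 (limma adjusted p = 0.00535). The mitochondrial folate carrier SLC25A32 gave -0.26 (limma adjusted p = 0.0222), and AHCY, which hydrolyses S-adenosylhomocysteine, gave -0.28 (limma adjusted p = 0.0281).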

How the data were processed

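RNA of 4 MDA-MB-231 libraries (siCt 1, siCt 2, siAXL 1, siAXL 2), grouped by their labels, was sequenced on the Illumina HiSeq platform. The authors deposited 1 table of 63677 genes, and its signal columns are normalized counts, in which the authors divided the reads of a gene by the size factor of the library. The submitters' processing notes name CASAVA 1.8, TopHat2 2.0.10, HTSeq 0.5.3, DESeq2 1.4.5 and the build GRCh37, without their roles; the strand setting is not given in the sources used here. The table also holds the authors' fold changes and p-values, which were not used. Per-sample columns not used numbered 0.

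Reads were recovered by division, 100% of values being whole within 0.01. Genes passing filterByExpr (16064; 47613 left out) were tested with limma 3.58.1 (lmFit, then eBayes with trend; R 4.3.3) after adding a pseudocount of 1 to the normalized counts and taking log2, without covariates and with Benjamini-Hochberg adjustment; the scale understates the change of low genes. edgeR 4.0.16 and DESeq2 1.42.0 on recovered reads, other scalings, filters, pseudocounts, thresholds and leaving out each library were alternatives. The scripts were tested on simulated data. Libraries of a group differed by more than counting noise (chi-square per gene 14.3 for siCt, 13.0 for siAXL). Symbols listed more than once numbered 3075.

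Overlaps and exon lengths come from GENCODE 29 (GRCh38) by Ensembl identifier, promoters from RefSeq (GRCh38.p14). The members, lists and motifs were chosen with earlier results of these data known, and the division into pathway steps after the values were seen. Named beside the members were AXL, genes overlapping called members, and, of the neighbouring genes, the 4 called with the smallest adjusted p in each direction.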

Additional observations from a re-analysis of the deposited data

How the results depend on the processing

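With 2 libraries per group the spread of a single gene is poorly known. Of the 41 tested members, 35 kept the sign of their log2 fold change under all 14 alternatives; those that turned in at least 1 were APRT, CTPS2, MTHFD1L, SAMHD1, TK1 and UCK1, none of them called. With the settings of the report 3006 of all genes were called (57.7% of them higher). The calls among members (lower and higher) and all genes were 14, 4 and 3122 by edgeR and 15, 2 and 2596 by DESeq2.

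Testing every gene with at least 1 count gave 1097 calls over all genes (69.0% higher), 7 members lower and 0 higher, and 2 neighbouring genes each way. An adjusted p under 0.01 gave 859 calls (71.4% higher), 4 members lower and 0 higher, and 2 neighbouring genes each way. Scaling by total reads gave 10 neighbouring genes lower, and 46.8% of all calls were then higher; upper quartile scaling gave 49.9%. The other scalings moved the median of all genes by at most 0.029 in size (log2). Leaving out each library in turn gave 1301 to 3900 calls over all genes, 4 to 16 members lower and 0 to 3 higher, 2 to 7 neighbouring genes lower and 2 to 9 higher, and a member median of -0.20 to -0.14; a lone library was assumed to vary like the other group. Without siAXL 1 the neighbouring genes gave 2 each way. The cause of these shifts was not tested.

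Replicate numbers are shared by the groups, but the labels do not say that they pair. Deviations from the group mean correlated by 0.271 between the groups. With 2 libraries per group, the 2 replicate numbers give the same value by construction. The fit with the replicate block gave 7310 calls over all genes, 25 members lower and 7 higher, and 17 neighbouring genes lower and 13 higher. With 4 libraries that fit leaves little from which to estimate the spread of a gene. Its larger counts therefore do not show that the libraries pair.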

Other observations

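The 7-base word CACATCA, chosen after values of these data were seen, occurs in the 3′ UTR (GENCODE 29) of 16.2% of 13025 tested genes, whose median log2 fold change was 0.077, against -0.011 for genes without it. Among the members it occurs once each in RRM1, PRPS1, ADSL, ATIC, HPRT1, SHMT1, SHMT2 and MTHFD1, 8 of the 41 tested. Of these, ADSL, ATIC and MTHFD1 were called lower and HPRT1 higher.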
